A study of Mus musculus with 2 samples.

Results

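Mature goblet nuclei of the mouse colon were studied in 2 single-nucleus RNA libraries, 1 from Pink1 KO mice and 1 from WT littermates. They were chosen by measured values of 4 genes, as barcodes in which Muc2 took at least 0.5% of UMIs (counted RNA molecules) and Fcgbp, Clca1 and Zg16 together took at least 1.5%. Barcodes first had to hold at least 500 UMIs, at least 300 genes and at most 10% mitochondrial UMIs. The rule found 580 of 12146 nuclei in the Pink1 KO library and 424 of 8888 in the WT library, 1004 of 21034 in all. Both groups were male C57BL/6 mice aged 15 weeks, and sorted nuclei of 3 mice per genotype were pooled into 1 library. Pink1, the gene knocked out, encodes a mitochondrial kinase that acts in mitophagy, and the labels name no other allele and no treatment. With 1 library per genotype no value has a replicate check, no test between genotypes was possible and no p-value is given. Genotype, library and the labelled batch (2 for Pink1 KO, 1 for WT) coincided, so they cannot be told apart. Nuclei were released by detergent and sorted by a DNA dye, so RNA of the cytoplasm is largely outside the measurement. Values in parentheses give 95% intervals, which reflect counting error alone.

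Goblet cells make the mucus of the colon. Muc2 is its gel-forming mucin, folded in the endoplasmic reticulum, glycosylated in the Golgi, packed into granules and released by exocytosis. Fcgbp is a large mucus protein that binds Muc2, Clca1 is a metalloprotease that acts on mucus, and Zg16 is a lectin that binds the cell wall of Gram-positive bacteria. As goblet cells move up the crypt they mature, reach the surface and are shed, and those near the surface are more exposed to bacteria than those in the crypt base.

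Members were compared with the other Muc2 nuclei, which met the Muc2 threshold but not that of Fcgbp, Clca1 and Zg16 (1962 in the Pink1 KO and 1566 in the WT library). Within those, 66 Pink1 KO and 52 WT nuclei had Reg4, Mptx1 and Spink4 at 1% of UMIs or more. The libraries held 22446326 UMIs in the Pink1 KO and 16997995 in the WT library, over 12230 and 8924 barcodes. Members had a median of 1908 UMIs and 1030.5 genes in the Pink1 KO and of 1933 UMIs and 1074.5 genes in the WT library. Mitochondrial transcripts were 0.361% of the UMIs of Pink1 KO members and 0.223% of those of WT members. Outside members they were 0.223% and 0.127% in other Muc2 nuclei, and 0.602% and 0.309% in nuclei under the Muc2 threshold, in the same order. The libraries shared 28 barcode sequences, and 1 Pink1 KO and 4 WT members carried one. The smallest barcode total in either library was 500 UMIs.

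The label of a mature goblet cell was checked on markers outside the rule. Over 10 further goblet markers, members summed to 8956 CPM in the Pink1 KO library, against 4627 CPM in other Muc2 nuclei and 610 CPM in the remaining nuclei. In the WT library the sums were 8578 CPM in members, 4287 CPM in other Muc2 nuclei and 553 CPM in the remaining nuclei. CPM, here and below, are counts scaled to a common total of nuclear-encoded genes, with the 4 rule genes left out. Of the 10, St6galnac1 alone was at 0 in members of both libraries. The sums do not give the direction of each marker. Spink4, also of the 10, was lower in members than in other Muc2 nuclei. It was at 0.0177% and 0.0310% of UMIs in the Pink1 KO library, and at 0.0125% and 0.0243% in the WT library. A further 11 marker lists covered cell types other than goblet, colonocyte and crypt base cells, with enteroendocrine and tuft cells among them. All but 1 of these lists summed to at most 125 CPM in members of either library. The exception was that of interstitial cells of Cajal (3 genes), at 418 CPM in Pink1 KO and 447 CPM in WT members, which holds Kit and Ano1. Kit, also a gene of deep-crypt secretory cells, was at 158 CPM in Pink1 KO and 201 CPM in WT members, against 399 and 409 CPM in other Muc2 nuclei, and Ano1, a chloride channel gene, at 260 and 245 CPM, against 112 and 131 CPM. The T and innate lymphoid list summed to 1.72 and 3.51 CPM in Pink1 KO and WT members, with Cd3e, Skap1 and Themis at 0 in both. Markers of crypt base and proliferating cells summed to 121 and 117 CPM in Pink1 KO and WT members, against 702 and 841 CPM in nuclei under the Muc2 threshold. Colonocyte markers (9 genes, none at 0) summed to 780 CPM in Pink1 KO and 353 CPM in WT members, and their part in the results on surface genes was not tested. Nuclei with at least 1% of UMIs from connective tissue, vessel, muscle, immune or nerve markers show the level of free RNA. Of 471 such nuclei in the Pink1 KO library none met the rule, which allows a share of up to 0.780%, and 1 of 238 (0.420%) did in the WT library.

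The members made up 4.78% (4.40 to 5.17) of Pink1 KO nuclei and 4.77% (4.34 to 5.23) of WT nuclei, a ratio of 1.00 (0.882 to 1.14). Among Muc2 nuclei alone they were 22.8% in the Pink1 KO and 21.3% in the WT library, a ratio of 1.07 (0.943 to 1.22). With both thresholds of the rule doubled, 268 Pink1 KO and 171 WT nuclei remained, a ratio of 1.15 (0.943 to 1.40). Nuclei were sorted before loading, so these are shares of sorted nuclei.

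The rule genes themselves are given as a description, since they chose the members. In Pink1 KO members the median share of a nucleus's UMIs was 1.41% for Muc2, 1.46% for Fcgbp, 0.445% for Clca1 and 1.04% for Zg16. In WT members it was 1.53% for Muc2, 1.80% for Fcgbp, 0.341% for Clca1 and 0.666% for Zg16. Every member held Muc2 and Fcgbp, while Zg16 had no UMI in 11 Pink1 KO and 47 WT nuclei and Clca1 none in 46 and 29. Just inside the threshold, with the 3 genes at 1.5% to under 2%, lay 106 Pink1 KO and 93 WT nuclei, and just outside it, at 1% to under 1.5%, lay 129 and 109. Fer1l6, which the rule did not use, stood at 1400 CPM just inside and 1108 CPM just outside in the Pink1 KO library, and at 1555 CPM and 1156 CPM in the WT library. Rab27a stood at 193 CPM just inside and 108 CPM just outside in the Pink1 KO library, and at 238 and 119 CPM in the WT library. Meg3 was at 525 and 523 CPM in the Pink1 KO and at 765 and 1456 CPM in the WT library, and Tff3 at 664 and 658 CPM and at 679 and 390 CPM. The size of the step at the threshold thus differed by gene and library.

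**Figure D1:**
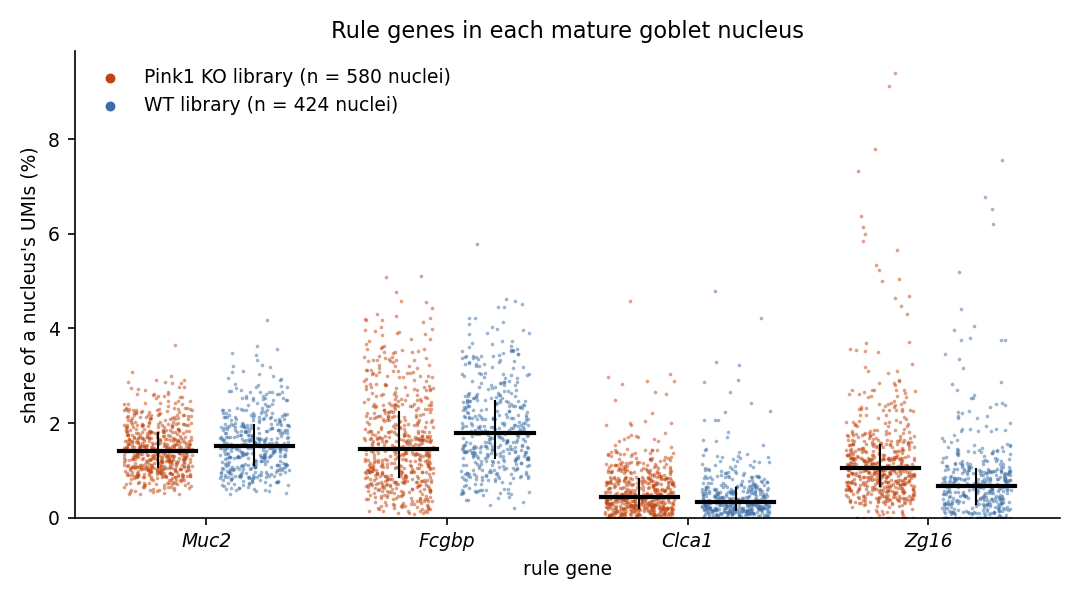
Share of each member's UMIs (y axis, percent) taken by the 4 rule genes, 1 point per nucleus, in the Pink1 KO (580 nuclei) and WT (424 nuclei) libraries, with the median as a thick bar and the quartiles as a thin one. The Zg16 median is 1.04% in Pink1 KO and 0.666% in WT nuclei, and the Fcgbp median 1.46% in Pink1 KO and 1.80% in WT nuclei.

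Set against other Muc2 nuclei of their own library, members were higher in Spink1, Tff3, Ang4 and Saa1, which encode secreted proteins, and lower in the imprinted noncoding RNAs Meg3, Rian and Mirg. Folds are given with 5 CPM added to both sides, for each library separately. The median gene was at a log2 fold of -0.18 in the Pink1 KO and -0.12 in the WT library. Spink1, a secreted inhibitor of serine proteases, stood at 1300 CPM in members and 37.0 CPM in other Muc2 nuclei of the Pink1 KO library, and at 1017 CPM and 30.9 CPM in those of the WT library. These are folds of 31.1 and 28.5 in the Pink1 KO and WT libraries. Tff3, a trefoil peptide of mucus, had folds of 13.1 and 20.4, from 1713 CPM in Pink1 KO and 1358 CPM in WT members. Ang4, an antimicrobial ribonuclease of a family of similar genes, was at 233 CPM in Pink1 KO and 257 CPM in WT members, against 11.2 and 24.3 CPM in the other Muc2 nuclei. Its folds were 14.7 and 8.93. Saa1, an acute phase protein, had folds of 8.31 and 6.21, although 20.4% of its counts in WT members came from 1 nucleus.

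The other genes that led this comparison were higher in members of both libraries by 6.15-fold or more. They were Mfsd7a (11.9 in Pink1 KO, 11.0 in WT), the schlafen gene Slfn4 (11.8 and 9.95), the RNA helicase gene Ddx60 (10.9 and 8.78), and Cyp2d12 and Cyp2d34 of the cytochrome P450 family (10.9 and 9.47; 8.69 and 9.28). Frmd3 had 8.16 and 8.72, the cytidine deaminase gene Apobec1 9.88 and 8.08, the ferlin gene Fer1l6 7.74 and 8.60, Ahnak2 16.1 and 7.66, and the villin-like gene Vill 6.29 and 6.15. Mxd1, which encodes a repressor that opposes Myc, was at 2013 CPM in Pink1 KO and 1064 CPM in WT members, against 180 and 139 CPM in other Muc2 nuclei, folds of 10.9 and 7.42. Slfn4, the Cyp2d genes and Ang4 have close copies among which counting could divide reads. Fer1l6 was found in 55.3% of Pink1 KO and 57.1% of WT members thinned to 500 UMIs each. Among nuclei of the free RNA check that lay under the Muc2 threshold, 0.428% of Pink1 KO and none of the WT nuclei held it.

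At the low end, Meg3 stood at 451 CPM in members and 3636 CPM in other Muc2 nuclei of the Pink1 KO library, and at 381 and 5072 CPM in those of the WT library. Rian and Mirg were low with it. All 3 are noncoding RNAs of the imprinted Dlk1-Dio3 locus, at 109541001 to 109571726, 109603940 to 109661716 and 109729764 to 109749460 of chromosome 12 (GRCm38). Folds were 0.125 and 0.0760 for Meg3, 0.0917 and 0.0684 for Rian, and 0.140 and 0.0667 for Mirg in the Pink1 KO and WT libraries. Cmah, the enzyme that makes N-glycolylneuraminic acid, had 11 counts in Pink1 KO and 9 in WT members, or 9.47 and 10.5 CPM. In other Muc2 nuclei it was at 321 CPM in the Pink1 KO and 216 CPM in the WT library. The ETS transcription factor gene Etv5 had 3 counts in members of each library (2.58 CPM in the Pink1 KO and 3.51 CPM in the WT library), against 102 and 96.9 CPM in other Muc2 nuclei. Vipr2, a receptor for vasoactive intestinal peptide, had 0.107 and 0.126. Of the remaining genes of the low end, Nxpe2, Col8a1 and Sorbs2 had folds from 0.0935 to 0.117 over both libraries. Samd5 had 2 counts in Pink1 KO and 7 in WT members, or 1.72 and 8.20 CPM, against 89.6 and 127 CPM in other Muc2 nuclei.

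**Figure D2:**
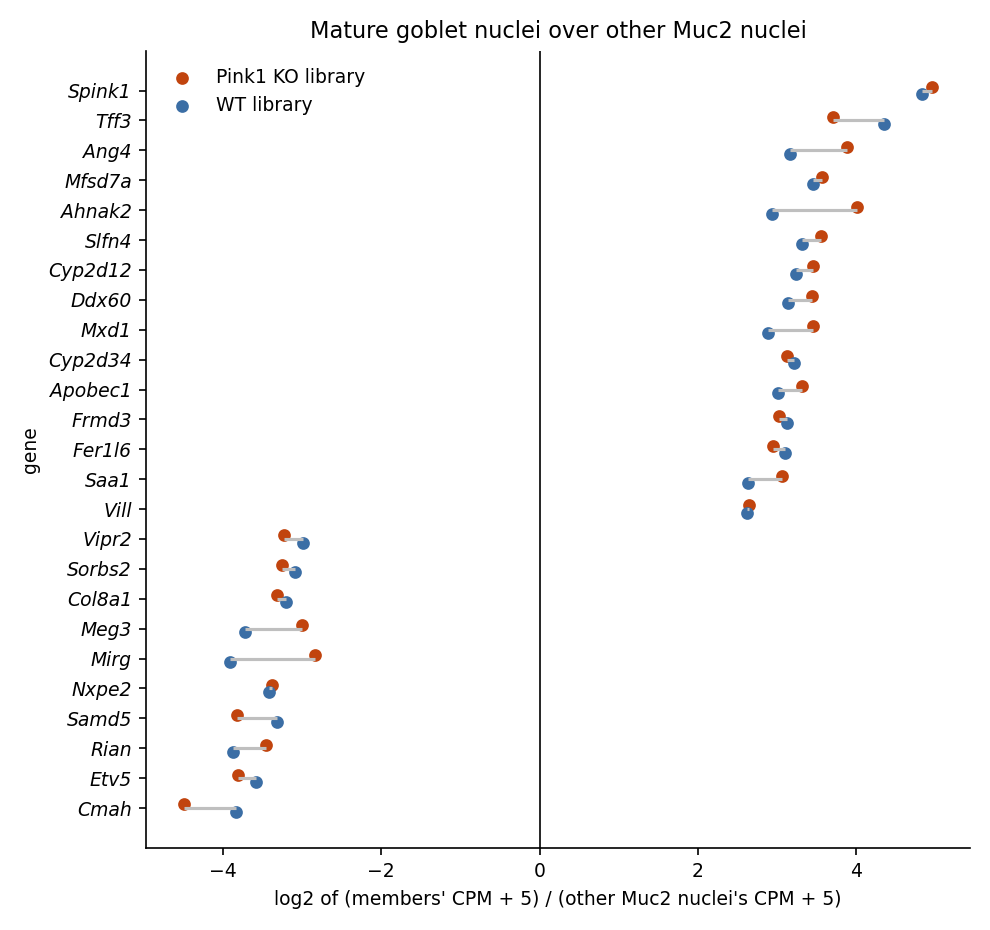
Log2 fold of members over other Muc2 nuclei (x axis, 5 CPM added) for the 15 highest and 10 lowest genes by the weaker of the 2 libraries, with the Pink1 KO library above the WT library in each row. Spink1 stands furthest right in both libraries, and Cmah stands furthest left in the Pink1 KO and Mirg in the WT library.

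The gene lists for steps of secretion differed in how many of their genes were higher in members. Over all 10720 genes compared, 10.0% were higher by 1.5-fold or more and 21.6% lower by that much in members of the Pink1 KO library, and 10.5% and 19% in those of the WT library. Of 28 granule exocytosis genes, 10 were higher in the Pink1 KO and 11 in the WT library, 10 of them in both, and 5 and 2 were lower. Rab27a, a GTPase of granule docking, had folds of 6.16 and 5.80, and its effector Sytl5 had 5.70 and 5.25. Sytl2, another Rab27 effector, had 2.48 and 2.41, and the goblet granule gene Bcas1 4.78 and 4.83. Of 46 genes of translocation and COPII transport, an earlier step, 1 and 0 were higher in the Pink1 KO and WT libraries. Those lower were 9 and 11, near the shares of all genes lower. Of 38 mucin glycosylation genes 7 were higher in each library and 14 and 12 lower. Of 19 secreted mucus and granule protein genes 7 were higher in each and 5 and 4 lower. Within glycosylation, the sulfotransferase gene Gal3st2c had 2.69 and 2.99, while the kinase and epimerase gene Gne, which starts sialic acid synthesis, had 0.326 and 0.318.

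Genes of the surface were more often higher than lower in members, and genes of the deep crypt more often lower than higher. Of 25 surface, shedding and cell death genes, 14 were higher and 1 lower in Pink1 KO and 11 higher and 1 lower in WT members. Krt20, a keratin of surface cells, had folds of 5.57 and 5.04, the cell cycle inhibitor gene Cdkn1a 6.45 and 5.87, and the galectin gene Lgals3 4.82 and 3.99. Of 15 deep-crypt secretory genes, 0 and 1 were higher and 8 in each library lower, among them Ephb2, a receptor of the crypt base, at 0.244 and 0.307. Of Reg4, Mptx1 and Spink4, Reg4 and Spink4 were lower in members of both libraries, but Mptx1 was not. Mptx1 took 0.122% of UMIs in members and 0.0866% in other Muc2 nuclei of the Pink1 KO library. In the WT library it took 0.143% and 0.0946%. Of 15 genes of position along the colon, 1 and 0 were higher and 6 in each lower. Of 26 immediate early genes, 14 in each library were higher, and 4 and 2 lower. Klf6, a zinc finger factor of that list, had 5.00 and 3.78, and Klf4, which acts in goblet cell maturation, had 4.27 and 3.71. Sox9, a transcription factor of the crypt base, had 0.199 and 0.202, and Ehf 0.188 and 0.206. Of 37 unfolded protein response and folding genes, 9 and 8 were higher and 4 and 3 lower, with Hspa5, the main chaperone of the endoplasmic reticulum, at 2.58 and 2.23.

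Members differed among themselves in which of the 3 genes had the most UMIs. These genes also chose the members, so the shares below are a description. Zg16 led in 195 of 580 Pink1 KO members (33.6%) and 63 of 424 WT members (14.9%), a ratio of 2.26 (1.70 to 3.06). Fcgbp led in 350 (60.3%) and 353 (83.3%), a ratio of 0.725 (0.623 to 0.843), Clca1 in 24 and 7, and 11 and 1 were tied. With the thresholds doubled the Zg16 ratio was 1.52 (0.989 to 2.40). Among members with no mitochondrial UMI (43 Pink1 KO and 102 WT) it was 5.53 (2.00 to 17.6), from 14 and 6 nuclei. Zg16 took 1.35% of UMIs in Pink1 KO and 0.991% in WT members. It was also higher in the Pink1 KO library in other Muc2 nuclei (0.0747% and 0.0454%) and in nuclei under the Muc2 threshold (0.0192% and 0.0115%). In the nuclei of the free RNA check it was at 0.0126% and 0.0131%. Mitochondrial transcripts were 0.649% of UMIs in Zg16-led and 0.207% in Fcgbp-led members of the Pink1 KO library, and 0.534% and 0.140% in those of the WT library. Ribosomal protein transcripts were at 0.835% and 0.430% in the Pink1 KO and at 0.888% and 0.441% in the WT library. The part of these transcripts in the differences between the sets was not tested.

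Zg16-led members held more Spink1, Tff3, Mptx1, Spink4, Klk1 and Agr2 than Fcgbp-led members in both libraries, and less Ang4. These genes were chosen after their values were seen. Mptx1 and Spink4 are also genes of the Reg4, Mptx1 and Spink4 set used above to divide the other Muc2 nuclei. Folds here have 20 CPM added, and 6.32% of 3589 genes were 1.5-fold higher and 3.76% lower in the Pink1 KO library, 9.64% and 8.39% in the WT library. Spink1 stood at 3012 CPM in Zg16-led and 363 CPM in Fcgbp-led members of the Pink1 KO library, and at 3036 and 379 CPM in those of the WT library, folds of 7.91 and 7.65. Tff3 had folds of 5.48 and 6.80, the pentraxin gene Mptx1 6.52 and 4.52, Spink4 4.03 and 2.33, the kallikrein gene Klk1 2.46 and 3.48, and the chaperone gene Agr2, which acts on Muc2, 2.14 and 2.25. Ang4 ran the other way. It had 12 counts in Zg16-led and 251 in Fcgbp-led members of the Pink1 KO library, and 0 and 218 in those of the WT library. In CPM these are 29.7 and 360 in the Pink1 KO and 0 and 326 in the WT library, a fold of 0.131 in the Pink1 KO library. The gasdermin gene Gsdmc2 had 16 counts in Zg16-led and 79 in Fcgbp-led members of the Pink1 KO library, and 3 and 68 in those of the WT library. The position genes Hoxb4 and Hoxb5 had folds from 0.358 to 0.608 over both libraries. Fer1l6 had 0.639 and 0.780, and the lineage factor gene Atoh1 1.22 and 1.11.

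Genotype ratios of the same genes were also taken within these sets, without a test of the difference between sets. Over all members Spink1 had a ratio of 1.28 (1.18 to 1.39) Pink1 KO over WT, but 0.957 (0.801 to 1.14) among Fcgbp-led and 0.992 (0.892 to 1.10) among Zg16-led members. Tff3 had 1.26 (1.17 to 1.36) over all members, 1.10 (0.956 to 1.26) among Fcgbp-led and 0.881 (0.804 to 0.967) among Zg16-led ones. Slfn4 had 1.65 (1.53 to 1.77) over all members, 1.68 (1.54 to 1.85) among Fcgbp-led and 0.997 (0.874 to 1.14) among Zg16-led ones. In nuclei with no mitochondrial UMI Spink1 was at 2.21 (1.47 to 3.34) and Slfn4 at 2.54 (2.14 to 3.03).

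By the summed share of Fcgbp, Clca1 and Zg16, 288 Pink1 KO and 236 WT members lay at 1.5% to under 3%, 239 and 164 at 3% to under 6%, and 53 (9.14%) and 24 (5.66%) at 6% and more. These are ranges of the rule's own measure, not types. Between the highest and the lowest range, 13.0% of 2464 genes were higher by 1.5-fold or more and 18.0% lower in the Pink1 KO library, and 16.7% and 22.3% in the WT library. Over the ranges from low to high, Spink1 was at 386, 1287 and 6424 CPM in the Pink1 KO and 344, 742 and 7574 CPM in the WT library. Tff3 was at 645, 1763 and 7446 CPM in the Pink1 KO and 580, 1160 and 8293 CPM in the WT library. Saa1 was at 189, 361 and 2135 CPM and at 82.2, 103 and 1388 CPM. All 3 were highest at 6% and more in both libraries. Meg3 ran down, at 588, 341 and 127 CPM in the Pink1 KO and 502, 263 and 97.9 CPM in the WT library. Ang4 was at 155, 309 and 371 CPM in the Pink1 KO and 229, 309 and 180 CPM in the WT library, so its order differed between them. Mitochondrial transcripts were 0.290%, 0.302% and 0.943% of UMIs over the ranges in the Pink1 KO and 0.187%, 0.124% and 0.980% in the WT library.

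**Figure D3:**
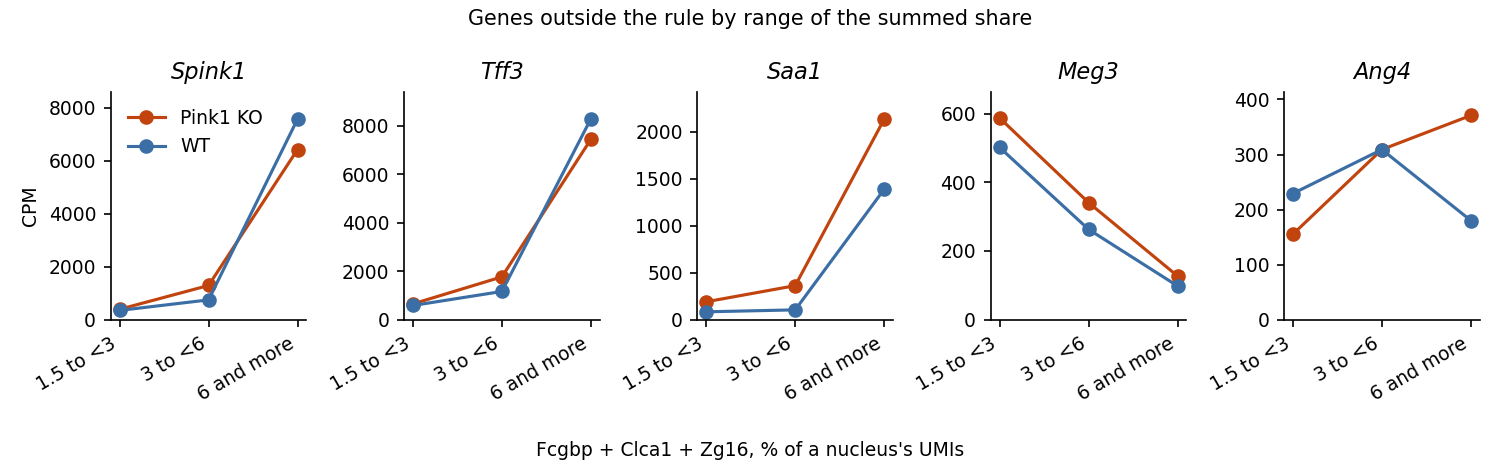
CPM (y axis, each panel with its own scale from 0) of 5 genes outside the rule over 3 ranges of the summed Fcgbp, Clca1 and Zg16 share (x axis), in the Pink1 KO and WT libraries. Spink1, Tff3 and Saa1 are highest and Meg3 lowest at 6% and more in both libraries.

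Between genotypes, immediate early genes were higher in Pink1 KO members and the sialyltransferase gene St3gal6 was lower. Pink1 itself (ENSMUSG00000028756, chromosome 4, 138313409 to 138326307) had 6 counts in Pink1 KO and 9 in WT members, a ratio of 0.490 (0.144 to 1.54). Under the alternatives it moved to 0.240 (0.0418 to 0.963) with the stricter barcode filter, 0.763 (0.308 to 1.91) with the thresholds halved and 0.275 (0.0278 to 1.44) among Fcgbp-led members. No label says which exons were removed, and a 3′ tag outside them checks nothing about the label. Of the 5856 genes with at least 50 counts in members, 6.80% were higher by 1.5-fold or more and 8.09% lower by that much in Pink1 KO members, and the median log2 ratio was -0.04.

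Egr1, a zinc finger transcription factor switched on within minutes of a stimulus, had 796 counts in Pink1 KO and 9 in WT members, or 685 and 10.5 CPM. Its ratio was 65.0 (34.1 to 143) in members and 178 (117 to 289) in other Muc2 nuclei. Fos, whose product joins Jun in AP-1, had 996 counts in Pink1 KO and 134 in WT members, or 858 and 157 CPM. Its ratio was 5.46 (4.56 to 6.59) in members and 13.2 (10.8 to 16.5) in other Muc2 nuclei, so the ratio of the ratios was 0.412 (0.313 to 0.543). In WT nuclei Fos stood at 157 CPM in members and 27.2 CPM in other Muc2 nuclei, and in Pink1 KO nuclei at 858 and 360 CPM. Among Zg16-led members the Fos ratio was 12.1 (6.98 to 22.9) and the Egr1 ratio 34.1 (11.5 to 166). With 10% free RNA subtracted no WT count of Egr1 was left.

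Of 18 measured immediate early genes, 16 passed 1.5-fold upward in Pink1 KO members and 0 downward, and their median log2 ratio was 1.28. Fosl2 at 1.22 and Btg1 at 1.32 lay between. Atf3, a stress-induced factor, had 59 and 5 counts in Pink1 KO and WT members, a ratio of 8.67 (3.51 to 27.7). It stood at 26.3 (4.44 to 1064) with the thresholds doubled, where WT members held 1 count, and at 41.9 (7.23 to 1684) with 10% free RNA subtracted. Dusp1, a phosphatase of MAP kinases, had 212 and 23 counts, a ratio of 6.78 (4.40 to 10.9), with 17.4% of the WT counts in 1 nucleus and a range from 4.38 to 11.4 over the alternatives. Ier2 had 5.65 (4.07 to 8.02), Jun 3.03, Zfp36 2.80, Errfi1, which restrains EGF receptor signalling, 2.53, Junb 2.33 and Btg2 2.00. Among members with no mitochondrial UMI Zfp36 was at 1.53 (0.456 to 4.64). Klf2 had 3.54 (1.83 to 7.52), but 0.639 (0.184 to 2.48) among Zg16-led members, 1.45 (0.547 to 4.24) in thinned nuclei and 8.07 (3.20 to 26.1) among Fcgbp-led ones. In other Muc2 nuclei 18 of 24 were higher and 0 lower, where 5.36% of 10237 genes were higher and 6.12% lower. The count in members ran from 12 of 16 to 16 of 18 over the alternatives with at least 14 genes measured, and was 6 of 9 in nuclei with no mitochondrial UMI.

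**Figure D4:**
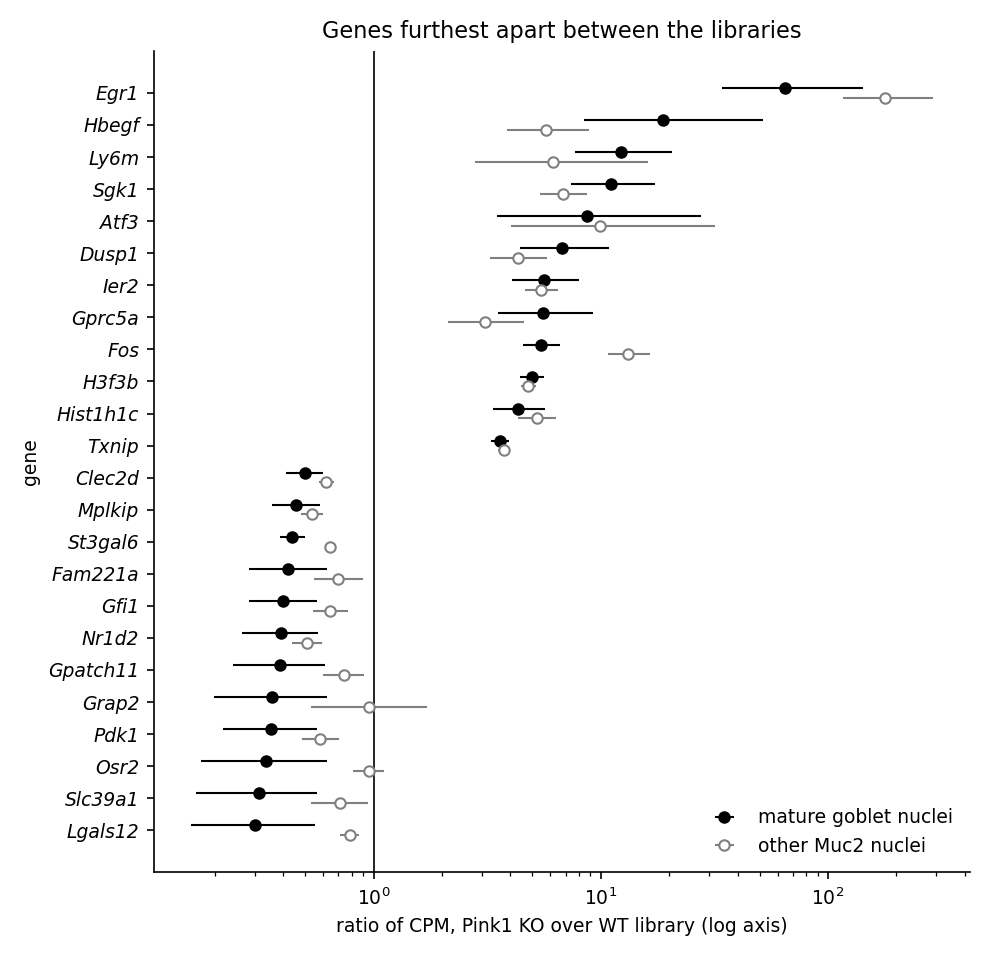
Ratio of CPM, Pink1 KO over WT library (log axis), for the 12 genes highest and 12 lowest in members, in members (filled) and in other Muc2 nuclei (open), with 95% intervals for counting error. Egr1 lies at 65.0 in members and 178 in other Muc2 nuclei, and St3gal6 at 0.439 and 0.645.

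The remaining genes of the 12 highest in Pink1 KO members were not among the immediate early genes named above. Hbegf, whose product binds the EGF receptor, had 153 counts in Pink1 KO and 6 in WT members, a ratio of 18.7 (8.42 to 51.9), against 5.76 (3.87 to 8.89) in other Muc2 nuclei. Its ratio was 12.4 with the thresholds doubled and 5.09 in nuclei with no mitochondrial UMI. Ly6m, of the Ly6 family, had 317 and 19 counts in Pink1 KO and WT members, a ratio of 12.3 (7.72 to 20.6), with 31.6% of the WT counts in 1 nucleus. It was 6.54 with the thresholds doubled, 6.64 in thinned nuclei and 4.19 among Zg16-led members. Sgk1, a kinase that regulates sodium channels, had 379 and 25 counts, a ratio of 11.1 (7.43 to 17.4). It stood at 63.6 (10.4 to 2612) in nuclei with no mitochondrial UMI, where WT members held 1 count. The receptor gene Gprc5a had 5.57 (3.52 to 9.24), and 10.9 (2.76 to 93.9) in thinned nuclei. H3f3b, which encodes a replication-independent histone H3, had 4.98 (4.40 to 5.65), and the linker histone gene Hist1h1c 4.34 (3.37 to 5.66), but 2.29 among Zg16-led members and 10.5 (4.75 to 26.3) in nuclei with no mitochondrial UMI. Both belong to families of similar genes. Txnip, which binds thioredoxin, had 2690 counts in Pink1 KO and 548 in WT members, a ratio of 3.61 (3.29 to 3.96), against 3.74 (3.52 to 3.97) in other Muc2 nuclei.

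St3gal6, which adds terminal sialic acid to glycans, had 377 counts in Pink1 KO and 631 in WT members, or 325 and 739 CPM. Its ratio was 0.439 (0.386 to 0.500), against 0.645 (0.611 to 0.680) in other Muc2 nuclei. It was 0.385 (0.328 to 0.451) among Fcgbp-led and 0.809 (0.609 to 1.08) among Zg16-led members. Gfi1, a repressor that keeps goblet cells from becoming enteroendocrine cells in the mouse, had 55 and 101 counts in Pink1 KO and WT members, a ratio of 0.400 (0.283 to 0.561). The galectin gene Lgals12 had 16 and 39 counts, a ratio of 0.302 (0.157 to 0.552), with values between 0.188 and 0.518 over the alternatives. Pdk1, which restrains pyruvate dehydrogenase, had 28 and 58 counts, a ratio of 0.355 (0.218 to 0.566). It stood at 0.0906 (0.0101 to 0.385) in thinned nuclei, 0.228 among Zg16-led members and 0.159 in nuclei with no mitochondrial UMI. The clock repressor gene Nr1d2 had 0.390 (0.263 to 0.572) and 0.673 in thinned nuclei, with 0 and 18 counts in Pink1 KO and WT nuclei with no mitochondrial UMI, and the zinc transporter gene Slc39a1 0.312 (0.166 to 0.564). The lectin gene Clec2d had 0.497 (0.412 to 0.598) and Mplkip 0.456 (0.356 to 0.581). Gpatch11, Fam221a, Osr2 and Grap2 had ratios from 0.336 to 0.421 on 51 to 118 counts, and of these Fam221a was at 1.60 (0.431 to 8.82) among Zg16-led members and Grap2 at 1.82 (0.455 to 6.65) in nuclei with no mitochondrial UMI. The Osr2 ratio was 0.164 with the thresholds doubled and 0.562 with them halved, Fam221a was at 0.174 in thinned nuclei and 0.742 with the ranges weighted equally, and the Gpatch11 ratio 0.246 among Zg16-led members.

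In the lists of the goblet secretory programme, counts are again read against 6.80% of all genes higher and 8.09% lower. Of 16 measured secreted mucus and granule genes 2 were higher, Klk1 at 1.56 (1.33 to 1.84) and Lypd8, which keeps flagellated bacteria from the epithelium, at 1.53 (1.38 to 1.70). In the same list Retnlb, an antibacterial peptide, was lower at 0.592 (0.350 to 0.993) from 29 and 36 counts in Pink1 KO and WT members, and Agr2 lay at 1.24 (1.13 to 1.36). Klk1 and Lypd8 were under 1.5-fold with the stricter barcode filter (1.42 and 1.38) or among Zg16-led members (1.08 and 1.04). Of 20 lineage factor genes 3 were higher and 1 lower. Klf4 had 1.51 (1.40 to 1.62), Xbp1 1.57 (1.35 to 1.83) and the Notch target gene Hes1 1.65 (1.29 to 2.13), while Gfi1 was the one lower. Klf4 is also in the immediate early list and Xbp1 in the folding list. Among Zg16-led members Klf4 was at 1.24, and with the thresholds doubled Hes1 was at 1.24. Spdef, which drives goblet maturation, lay at 1.49 (1.16 to 1.94), but at 1.04 with the thresholds doubled and 2.54 (1.25 to 5.18) in nuclei with no mitochondrial UMI. Atoh1, which specifies secretory cells, lay at 0.765 (0.650 to 0.901), and at 0.509 (0.271 to 0.894) in those nuclei. Of 34 glycosylation genes 5 were higher and St3gal6 was lower. Galnt3, which starts O-glycans, had 1.59 (1.22 to 2.09) but 0.966 in thinned nuclei, Gcnt1, which branches them, 1.62 (1.21 to 2.19), with 2.54 (0.832 to 7.78) in nuclei with no mitochondrial UMI, and B3gnt7 1.72 (1.24 to 2.43). B3gnt7 was at 0.636 (0.115 to 2.36) in nuclei with no mitochondrial UMI. Of 38 translocation and COPII genes 0 passed 1.5-fold in either direction (median log2 0.07), and from 0 to 4 were higher and 0 or 1 lower over the alternatives apart from Fcgbp-led members, where 2 of 33 were lower. Of 23 exocytosis genes 0 were higher and Myrip was lower at 0.532 (0.289 to 0.966) from 21 and 29 counts, and of 15 calcium handling genes 0 passed in either direction. Rab27a had 0.867 (0.734 to 1.02).

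Of 34 unfolded protein response and folding genes 8 were higher and 0 lower in Pink1 KO members, with a median log2 ratio of 0.18. In other Muc2 nuclei 6 of 37 were higher and 0 lower, with a median of 0.23. Hspa5 (chromosome 2, 34771970 to 34777547) had 1015 counts in Pink1 KO and 279 in WT members, or 874 and 327 CPM, a ratio of 2.67 (2.34 to 3.06), and 2.34 (2.11 to 2.60) in other Muc2 nuclei. Over the alternatives the Hspa5 ratio ran from 2.11 to 3.69. Herpud1, of the degradation machinery of the endoplasmic reticulum, had 666 and 222 counts, a ratio of 2.21 (1.89 to 2.58). Selenok had 2.23 (1.45 to 3.52), Ddit3, a stress-induced factor, 1.98 (1.40 to 2.84), the chaperone gene Calr 1.63 (1.35 to 1.98), Xbp1 1.57 (1.35 to 1.83), the sensor kinase gene Eif2ak3 1.52 (1.11 to 2.11) and Edem1, of protein disposal, 1.5 (1.16 to 1.96). Calr, Xbp1, Eif2ak3 and Edem1 were under 1.5 in at least 1 alternative each, with lowest values of 1.30, 1.41, 1.19 and 1.28. Ddit3 was at 1.26 in thinned nuclei, 1.27 in nuclei with no mitochondrial UMI and 4.29 among Zg16-led members, Selenok at 1.36 in thinned nuclei, and Eif2ak3 at 3.09 in nuclei with no mitochondrial UMI. Atf4, the effector of the integrated stress response, lay at 1.03 (0.879 to 1.20), the chaperone gene Hyou1 at 0.700 (0.481 to 1.02), with 1.14 among Zg16-led members, and the co-chaperone gene Dnajc3 at 0.854 (0.667 to 1.09).

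Promoters are shown for 2 chaperone genes and 2 immediate early genes that were higher in Pink1 KO members, because their start regions hold the motifs known for each list. The stretches run from 250 bases before to 50 after the start (RefSeq, GRCm38.p6), and capitals mark the motif. The endoplasmic reticulum stress element, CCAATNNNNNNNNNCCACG, was found on either strand in 0.119% of 32851 promoters and in 10 of 36 of the folding list. The cyclic AMP response element, TGACGTCA, was found in 1.79% of all promoters and 5 of 26 of the immediate early list, and the CArG box in 1.63% of all and 3 of 26. The shares of all count single promoters. Those of the lists count genes with a match in any of their promoters, so the 2 kinds of share are not alike. Of 33 listed immediate early genes 26 had a promoter in the set searched, and Egr1 and Ier2 were not among these. The motifs searched did not overlap in the stretches shown. In the first pair the capitals mark the stress element and in the second the response element.
Hspa5, chr2:34771840-34772139, plus strand: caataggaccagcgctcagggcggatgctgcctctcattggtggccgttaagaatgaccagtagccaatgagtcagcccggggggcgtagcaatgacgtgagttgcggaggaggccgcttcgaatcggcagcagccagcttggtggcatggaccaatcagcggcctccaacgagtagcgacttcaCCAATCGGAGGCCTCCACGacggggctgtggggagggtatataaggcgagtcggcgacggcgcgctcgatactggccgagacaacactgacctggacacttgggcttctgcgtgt
Calr, chr8:84846882-84847181, minus strand: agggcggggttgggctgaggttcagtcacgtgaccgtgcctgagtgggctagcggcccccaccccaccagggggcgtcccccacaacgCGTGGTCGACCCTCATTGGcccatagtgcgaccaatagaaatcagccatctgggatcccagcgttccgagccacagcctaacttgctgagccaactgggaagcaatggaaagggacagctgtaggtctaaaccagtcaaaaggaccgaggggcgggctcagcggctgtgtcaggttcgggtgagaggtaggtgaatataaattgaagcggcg
Dusp1, chr17:26508423-26508722, minus strand: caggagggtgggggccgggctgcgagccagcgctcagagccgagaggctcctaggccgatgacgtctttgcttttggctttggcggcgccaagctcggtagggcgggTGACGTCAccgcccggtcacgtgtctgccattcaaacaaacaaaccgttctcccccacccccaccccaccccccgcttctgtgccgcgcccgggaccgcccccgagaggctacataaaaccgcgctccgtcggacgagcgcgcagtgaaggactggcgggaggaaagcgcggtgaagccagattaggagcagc
Btg2, chr1:134079106-134079405, minus strand: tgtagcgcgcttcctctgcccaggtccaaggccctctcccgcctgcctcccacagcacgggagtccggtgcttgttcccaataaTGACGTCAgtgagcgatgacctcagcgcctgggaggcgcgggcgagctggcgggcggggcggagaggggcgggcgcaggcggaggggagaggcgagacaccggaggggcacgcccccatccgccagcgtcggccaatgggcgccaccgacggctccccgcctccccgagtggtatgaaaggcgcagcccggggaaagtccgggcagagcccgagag
A match is a description of letters and not of a bound factor. The stress element is also present in the promoter of Dnajc3, whose ratio was 0.854, and of Pdia6, at 1.06 (0.845 to 1.33), while Herpud1 at 2.21 had no match to it in this window.

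Surface genes were higher in Pink1 KO members as well. Of 16 measured surface, shedding and cell death genes 10 were higher and 0 lower, with a median log2 ratio of 0.82. This was not particular to members. In other Muc2 nuclei 10 of 23 were higher and 0 lower, with a median of 0.39, where 5.36% of all genes were higher. Cldn4, a tight junction protein of surface cells, had 184 counts in Pink1 KO and 38 in WT members, a ratio of 3.56 (2.50 to 5.19). Lgals3 had 2.39 (2.05 to 2.79), Krt20 2.38 (1.89 to 3.03), Casp8, which starts apoptosis, 1.97 (1.47 to 2.66), Mxd1 1.89 (1.75 to 2.05), the adhesion gene Ceacam1 1.78 (1.68 to 1.88) and Cdkn1a 1.76 (1.46 to 2.13). Krt20 is also among the 9 colonocyte markers, whose part in these results was not tested. Among Zg16-led members Krt20 was at 1.43, Casp8 at 1.30 and Ceacam1 at 1.47, and in thinned nuclei Krt20 was at 4.19 and Cdkn1a at 2.77. In nuclei with no mitochondrial UMI Krt20 was at 3.93 (1.74 to 9.29) and Cdkn1a at 1.11 (0.588 to 2.01). Of 14 non-canonical and inter-crypt goblet genes, several of them the same, 9 were higher and 0 lower, and in other Muc2 nuclei 8 of 17 were higher and 1 lower. The transmembrane mucin gene Muc13 had 1.56 (1.45 to 1.69), and 1.31 among Zg16-led members. The non-canonical count in members was 6 of 14 and 1 lower without the highest doublet scores, and 3 of 9 with the thresholds doubled. Of the members, 42 of the Pink1 KO (7.24%) and 17 of the WT library (4.01%) had such scores. The number removed was set by library size, and was 9.72% of all Pink1 KO and 7.11% of all WT nuclei.

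Of 19 ion and bicarbonate transport genes 5 were higher and 1 lower. Slc26a3, the chloride and bicarbonate exchanger of colonocytes, had 160 counts in Pink1 KO and 27 in WT members, a ratio of 4.36 (2.88 to 6.82), but 2.11 (1.11 to 4.22) without the highest doublet scores, 2.05 (0.772 to 6.36) in thinned nuclei and 2.40 (1.07 to 6.32) among Zg16-led members. A single nucleus held 25.0% of its Pink1 KO counts. In other Muc2 nuclei it was 0.781. Car4, a carbonic anhydrase of colonocytes, had 47 and 12 counts, a ratio of 2.88 (1.5 to 5.96), but 0.798 (0.314 to 2.03) without those scores, and 1 nucleus held 31.9% of its Pink1 KO counts. Both are among the 9 colonocyte markers, which summed to 780 CPM in Pink1 KO and 353 CPM in WT members. Car8 was the one lower, with 165 and 222 counts and a ratio of 0.546 (0.444 to 0.671), and 0.356 among Zg16-led members.

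The remaining lists are read against the 6.80% of all genes higher and 8.09% lower in Pink1 KO members. Of 20 mitophagy and mitochondrial quality control genes 0 were higher and 1 lower, Bnip3l, a mitophagy receptor, at 0.622 (0.441 to 0.875), but 1.11 in thinned nuclei, and 0.399 among Zg16-led members and 0.402 in nuclei with no mitochondrial UMI. Of 22 nuclear-encoded oxidative phosphorylation genes 3 were higher and 2 lower, and of 12 autophagy genes 2 were higher and 1 lower. Of 16 genes of the EGF receptor list 5 were higher and 0 lower, among them Hbegf, Errfi1 and the phosphatase gene Dusp6 at 2.25 (1.68 to 3.06). Errfi1 and Dusp6 are also in the immediate early list, so these counts are not separate from its own. Of 9 interferon and MHC genes 0 passed in either direction. Of 12 NF-kB and antimicrobial genes 4 were higher and 1 lower, with Saa1 at 2.39 (1.99 to 2.87) and the regulator gene Nfkbiz at 1.83 (1.46 to 2.32). Of 10 clock genes 2 were higher and 1 lower, of 11 deep-crypt genes 0 and 1, of 8 genes of position along the colon 0 and 1, of 3 Ly6 genes 2 and 0 and of 3 cell cycle genes 0 and 0.

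**Figure D5:**
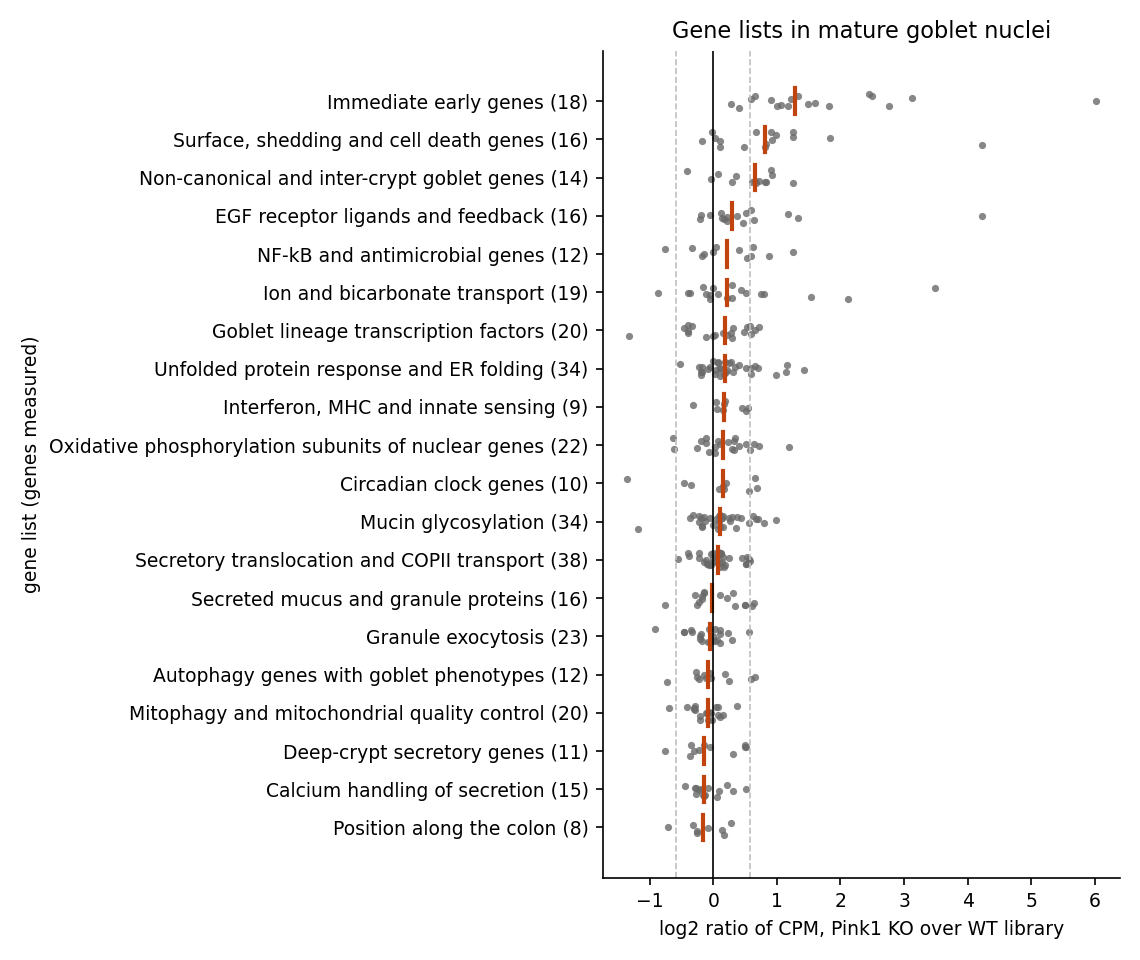
Log2 ratio of CPM, Pink1 KO over WT library, in members (x axis) for each gene with at least 50 counts in the 20 lists with at least 8 such genes, 1 point per gene, with the list's median as a red bar and 1.5-fold as dashed lines. The immediate early list has the highest median, 1.28, followed by the surface list at 0.82.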

How the data were processed

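Nuclei of the colon were profiled with a 10x Genomics 3′ kit. The deposited files hold raw UMI counts per gene and barcode for 2 libraries. Per the file headers they came from Cell Ranger 6.1.2. The submitters' processing notes name the mm10 (GRCm38) build. Whether strand was used and introns were counted is not stated in the labels. Libraries held 22446326 (Pink1 KO) and 16997995 (WT) UMIs. Counts of members were summed per library and scaled to CPM, leaving mitochondrial and the 4 rule genes out of the total. Genes with at least 50 counts in the nuclei compared were used, and 1.5-fold was the limit for calling a gene higher or lower. Ratios have exact conditional binomial intervals and shares exact Clopper-Pearson intervals at 95%. They cover counting error only. Comparisons within members needed 100 counts and had 20 CPM added.

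The members and all 22 gene lists were chosen with earlier results of these data known. Genes were named as the 12 highest and 12 lowest in Pink1 KO members by the interval bound nearest 1, the 15 highest and 10 lowest against other Muc2 nuclei by the weaker library, Pink1, the rule genes, and examples of the lists. Mitochondrial, Y-linked, Xist, immunoglobulin and hemoglobin genes and genes named only as clones were passed over. Genes named within members, and the promoters shown, were chosen after their values were seen.

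Alternatives changed the denominator, centring, weighting of nuclei, barcode filter, thresholds, depth (thinning to 500 UMIs), free RNA and count minimum, or removed the highest Scrublet doublet scores (1180 Pink1 KO and 632 WT barcodes). Sets of members led by Fcgbp or Zg16, or with no mitochondrial UMI, were added after seeing the data. Doublets were kept in the main values. The ratio step was run on simulated Poisson counts from 1 pooled profile with set folds. These counts have no spread between nuclei or libraries, so the run checks the calculation alone and not the ratios found here. Python 3.11.15, numpy 2.4.6, scipy 1.17.1, pandas 2.3.3 and scanpy 1.11.5 were used. Of 32285 gene IDs, 32158 (99.6%) matched GENCODE M21, which gave the positions. Promoter sequences are from RefSeq.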

Additional observations from a re-analysis of the deposited data

Results flagged for a closer look

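Grpr, the receptor for gastrin-releasing peptide, lay in opposite directions in members and in other Muc2 nuclei. It had 68 counts in Pink1 KO and 28 in WT members, a ratio of 1.79 (1.13 to 2.88). In other Muc2 nuclei it had 22 counts in the Pink1 KO and 50 in the WT library, a ratio of 0.358 (0.207 to 0.603). The difference between these ratios was not tested, and the gene was found by looking through all genes measured.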

How the results depend on the processing

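No paired analysis was possible because each genotype had 1 library. Of the main values, 79 stayed within their limits under the alternatives and 10 moved. With the thresholds doubled the member share ratio was 1.15 and the Zg16-led ratio 1.52, and with no mitochondrial UMI the Zg16-led ratio was 5.53. The share of genes higher in Pink1 KO members was 11.7% in thinned nuclei and 12.4% with no mitochondrial UMI, and that of genes lower was 12.5% with a minimum of 20 counts and 13.6% with no mitochondrial UMI. Against other Muc2 nuclei of the Pink1 KO library, 13.6% of genes were lower with the median set to 0, and 18.5% were higher and 35.8% lower with no mitochondrial UMI. For single genes 1531 values kept their range, 241 moved and 25 changed direction. A change of direction was counted only where the gene's main interval left out 1. Genes whose main interval held 1 could cross it without being counted so, as Mirg did from 1.14 to 0.242 in thinned nuclei. Over all lists and alternatives, of the counts of genes higher 93 moved and 200 stayed, and of those lower 87 moved and 206 stayed. Direction changed for Car4 without the highest doublet scores (0.798), with the thresholds doubled (0.576), with ranges weighted equally (0.960) and with no mitochondrial UMI (0). It changed for Emp1 with the thresholds doubled (0.691), thinned (0.815), Zg16-led (0.456) and with no mitochondrial UMI (0.848), and for Meg3 with the thresholds halved (0.768) and thinned (0.703). Thinned, Bnip3l was at 1.11 and Galnt3 at 0.966. Among Fcgbp-led members Spink1 was at 0.957 and Fosl2 at 0.982. Among Zg16-led members Fam221a was at 1.60, Slfn4 0.997, Spink1 0.992, Tff3 0.881, Btg1 0.885, Klf2 0.639, Canx 0.993 and Cldn7 0.928. With no mitochondrial UMI B3gnt7 was at 0.636, Grap2 at 1.82 and Agr2 at 0.952. Thinning and the smaller sets leave fewer counts by construction, and otherwise the cause was not tested. At this depth 3 counts over all members equal 2.58 CPM in the Pink1 KO and 3.51 CPM in the WT library.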

Other observations

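Ion channel and transport genes lay in both directions in members against other Muc2 nuclei. The chloride channel genes Best2 and Ano1, chosen after their values were seen, had folds of 2.76 and 2.26 in the Pink1 KO and 2.55 and 1.83 in the WT library. Of 17 calcium handling genes 4 were higher and 3 lower in the Pink1 KO and 6 higher and 2 lower in the WT library, where 10.0% and 10.5% of all genes were higher and 21.6% and 19% lower. Of 26 ion and bicarbonate transport genes 7 were higher and 8 lower in the Pink1 KO and 3 higher and 13 lower in the WT library. Best2 had a Pink1 KO over WT ratio of 1.43 (1.17 to 1.76) in members.

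The helicase gene Ddx60 and the deaminase gene Apobec1, which led members over other Muc2 nuclei in both libraries, also differed between genotypes. Ddx60 had 650 counts in Pink1 KO and 149 in WT members, a ratio of 3.21 (2.68 to 3.86), and 1.39 with the thresholds doubled and 2.05 among Fcgbp-led members. Apobec1 had 367 and 117 counts, a ratio of 2.31 (1.87 to 2.86). Thinned, its ratio was 4.30 (2.47 to 8.00).

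Y-linked genes, looked at after their values were seen, were lower in the Pink1 KO library in members and in the other nuclei. In members the ratios were 0.611 for Ddx3y, 0.495 for Eif2s3y, 0.534 for Kdm5d and 0.657 for Uty. In other Muc2 nuclei they were 0.516, 0.544, 0.451 and 0.530 in the same order. Xist had 2 counts in Pink1 KO and 1 in WT members.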
